A study of Mus musculus with 4 samples.

Results

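Of the 32285 genes in the count tables, 10 regulators of spermatogonial fate were followed through germ cell development in mouse testicular organoids (TOs) and in mouse testis: Zbtb16, Sall4, Id4, Nanos2, Nanos3, Lin28a, Sohlh1, Sohlh2, Dmrt1 and Dmrtb1. They were chosen by name, as transcription and RNA regulators that hold spermatogonia in the undifferentiated state or move them out of it, and all 10 were found by gene symbol. The study asked how far spermatogenesis proceeds when dissociated testis cells of ICR mouse pups are reassembled into spheroids, embedded in extracellular matrix and cultured. Single cells of 28-day-old TOs and of testes from 28-day-old mice were profiled with the 10x Genomics droplet platform, with 2 libraries of each (TO replicates 1 and 2, testis replicates 1 and 2). The series design and the study's methods put the TOs at 28 days while the dissociation protocol in the labels speaks of day 21, and the cells of both groups are labelled unsorted. The study's methods take the sequenced organoids from independent batches and call the testis libraries biological replicates, but no source used here ties a batch or an animal to a library. Every p-value rests on the spread between libraries of a group, with 2 libraries a group where none is left out. In fits with a library left out, 1 group has a single library and no spread of its own, so their p-values are weaker evidence.

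Spermatogonial stem cells sit in the undifferentiated pool and either renew themselves or, under retinoic acid, become KIT-positive differentiating spermatogonia that enter meiosis. ID4, ZBTB16 (PLZF), SALL4, NANOS2, NANOS3 and LIN28A mark or maintain the undifferentiated pool. SOHLH1 and SOHLH2 drive differentiation, and the DM domain factors DMRT1 and DMRTB1 control the timing of entry into meiosis, DMRT1 also being a Sertoli cell factor that keeps the male identity of the gonad.

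Levels are given as UMIs (unique molecular identifiers, each standing for 1 counted RNA molecule) of a gene per 1000000 UMIs of a cell class in 1 library, written CPM. Cells were placed in classes by clustering that left the 10 genes out and by markers that include none of them. The 4 libraries had 74988295 to 119966959 UMIs, and 8713 to 9866 cells were kept in each, germ cells making up 999 and 729 of the TO cells and 7188 and 7800 of the testis cells. Undifferentiated spermatogonia numbered 237 and 106 in TOs and 180 and 59 in testes, and their 7 naming markers (Gfra1, Ret, Etv5 and others) summed to between 757 and 1248 CPM in this class against 3.06 to 22.9 CPM in differentiating spermatogonia and in leptotene to zygotene spermatocytes. Differentiating spermatogonia numbered 356 and 242 in TOs and 438 and 160 in testes, and leptotene to zygotene spermatocytes 220 and 286 against 315 and 349. Later germ cells (pachytene to elongating) were few in TOs, with 128 and 62 cells against 6148 and 7188. Any pair of libraries shared between 30 and 55 cell barcodes. Markers of other cells moved with the condition: the 8 spermatid markers, all 8 of them with UMIs in each testis library, summed to 1425 and 1872 CPM in testis undifferentiated spermatogonia and to 19.1 and 22.0 CPM in those of TOs, where 7 and 4 of the 8 had UMIs. The 7 Sertoli markers summed to 277 and 84.4 CPM in TO undifferentiated spermatogonia and to 52.6 and 39.1 CPM in those of testis. The part of these transcripts in the differences below was not tested, except where a value is given beside a result.

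The windows before the starts of Sohlh1 and Sohlh2 are shown because the basic helix-loop-helix partners they encode bind E boxes, and because Sohlh2 was higher in TOs (values further on) while its partner gene was not. They are RefSeq letters on GRCm38.p6, on the coding strand, with each CANNTG E box in capitals. The Sohlh2 window is cut at the GENCODE gene start, which leaves 234 of its 250 bases.
Sohlh1 (chr2:25847249-25847498, minus strand): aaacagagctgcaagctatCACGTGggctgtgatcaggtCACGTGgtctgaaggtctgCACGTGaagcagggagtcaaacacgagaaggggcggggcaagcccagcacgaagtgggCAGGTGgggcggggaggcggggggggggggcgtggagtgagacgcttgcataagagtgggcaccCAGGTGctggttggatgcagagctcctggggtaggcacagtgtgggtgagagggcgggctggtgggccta
Sohlh2 (chr3:55181794-55182027, plus strand): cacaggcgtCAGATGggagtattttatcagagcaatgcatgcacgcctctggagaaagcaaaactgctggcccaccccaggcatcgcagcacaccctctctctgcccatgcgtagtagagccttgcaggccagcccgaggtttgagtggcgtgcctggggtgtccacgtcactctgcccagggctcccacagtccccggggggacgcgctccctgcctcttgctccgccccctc
The Sohlh1 window held 5 CANNTG motifs, 3 of them CACGTG, and the Sohlh2 window held 1. Both motifs read the same on either strand, and CACGTG is a case of CANNTG. Of all 32851 RefSeq windows of 250 bases, 66.2% held CANNTG and 6.02% held CACGTG. Promoter entries were matched for 7 of the 10 genes. The windows of Id4, Lin28a and Nanos2 held no CANNTG, that of Nanos3 held 2, and both windows of Dmrtb1 held the motif. These windows were counted whole, at 250 bases each. The Nanos3 window and the Dmrtb1 window with 3 motifs lie wholly inside the GENCODE gene, with no bases left before its start. Of the Lin28a and Nanos2 windows, 25 and 124 bases lie inside the gene.

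Zbtb16 encodes a zinc finger repressor that maintains spermatogonial stem cells (gene at chr9:48654297-48836222 of GRCm38, minus strand). Its level in undifferentiated spermatogonia was 282 and 217 CPM in TOs and 334 and 299 CPM in testes. In differentiating spermatogonia it was 57.2 and 43.3 CPM against 56.8 and 49.4 CPM, and in leptotene to zygotene cells 7.52 and 2.24 CPM against 4.91 and 0.56 CPM. Over these 3 classes the level was lower at each later class in all 4 libraries, and each TO library lay below both testis libraries in the first class, while the libraries overlapped in the second. After each cell was thinned to 1500 UMIs, 32.2% and 31.1% of TO undifferentiated spermatogonia and 39.4% and 30.5% of those in testes held a Zbtb16 UMI, against 80.6% and 83.0% of TO cells and 76.7% and 76.3% of testis cells without thinning. In Sertoli cells, which should lack it, the thinned share was at most 0.27%. Other somatic classes held more. The mean thinned share was 5.53% in TO and 7.48% in testis Leydig cells, and 6.89% and 6.61% in other somatic cells. In differentiating spermatogonia it was 7.27% in TOs and 5.86% in testes, so Zbtb16 did not set that class apart from these somatic cells.

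Sall4 encodes a zinc finger factor that is needed for spermatogonial differentiation and partners ZBTB16 (chr2:168748332-168767943, minus strand). Its levels were 169 and 129 CPM in TO undifferentiated spermatogonia and 109 and 147 CPM in those of testis, so the libraries overlapped. They were 35.4 and 29.0 CPM against 27.0 and 36.0 CPM in differentiating spermatogonia, again overlapping. Over the 20 sums (5 classes in 4 libraries, which share each library's depth), the patterns nearest to that of Zbtb16 were Trim71 (Pearson r of 0.995 on log2(CPM + 10)), Sall4 (0.990) and Lin28a (0.984), and the nearest to Sall4 was also Trim71 (0.995).

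Id4 encodes a helix-loop-helix inhibitor that marks the cells with the most stem cell activity (chr13:48261228-48266026, plus strand). Its levels in undifferentiated spermatogonia were 90.5 and 89.7 CPM in TOs, between the 38.4 and 101 CPM of the testis libraries. It was uneven within that class. When the early germ cells were split into 13 sub-clusters ordered from Gfra1-rich to Dmc1-rich, the first, led by Kcnc2, Glis3, Gfra1 and Ret, held Id4 at 148 and 180 CPM in TOs and 83.5 and 161 CPM in testes, and the second, led by Egr4, Stox2, Sdc4 and Nab2, held it at 17.1 and 30.5 CPM against 16.2 and 49.0 CPM. The first sub-cluster took 55.7% and 41.5% of the undifferentiated cells of TOs and 34.4% and 54.2% of those of testes, which overlap.

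Id4 was also present outside spermatogonia. In pachytene cells it was 123 and 267 CPM in testes and 51.7 and 433 CPM in TOs, the latter from 35 and 7 cells and 6 and 30 UMIs, and in diplotene and dividing cells it was 29.0 and 43.5 CPM in testes and 82.5 and 103 CPM in TOs. It was thus lower in the later of these stages in both testis libraries and TO replicate 2, and higher in TO replicate 1. Sertoli cells held it at 45.3 and 62.5 CPM in TOs and 42.6 and 49.4 CPM in testes. The highest of the 5 classes for Id4 by CPM thus differed between libraries, being undifferentiated spermatogonia in TO replicate 1 and testis replicate 2, later germ cells in TO replicate 2 and Sertoli cells in testis replicate 1. By the share of cells after thinning, undifferentiated spermatogonia were highest in TO replicate 2 too. With stages set by a Spearman match to testis states, later germ cells were highest in TO replicate 1.

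Nanos2 and Nanos3 encode RNA-binding partners of the deadenylation machinery, NANOS2 in the stem cell pool and NANOS3 in primordial germ cells and undifferentiated spermatogonia (chr7:18987400-18988962, plus strand, and chr8:84173731-84185217, minus strand). Nanos2 was near the limit of detection, with 9 and 3 UMIs in TO and 9 and 2 UMIs in testis undifferentiated spermatogonia and 0 UMIs in the other 3 germ classes and in Sertoli cells. A count of 0 allows up to 1.09 CPM in the differentiating spermatogonia of TO replicate 1 and up to 3.09 CPM in those of testis replicate 2. In TO later germ cells it allows up to 8.46 and 10.1 CPM, above the 4.29 and 2.64 CPM of TO undifferentiated spermatogonia. The 0 in TO later germ cells thus cannot show a lower level. The TO to testis ratio of Nanos2 in the pooled undifferentiated cells was 0.52, with a 95% counting interval of 0.21 to 1.31. Nanos3 stood at 10.5 and 20.2 CPM in TO undifferentiated spermatogonia and at 55.3 and 43.7 CPM in those of testis, so both TO libraries lay below both testis libraries. It was at 1.09 and 1.02 CPM against 2.89 and 5.15 CPM in differentiating spermatogonia.

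Lin28a encodes an RNA-binding protein that blocks let-7 maturation (chr4:134003330-134018841, minus strand). It was found at 44.3 and 46.6 CPM in TO undifferentiated spermatogonia and at 96.4 and 73.5 CPM in those of testis, both TO libraries below both testis libraries. In differentiating spermatogonia the libraries overlapped, at 18.2 and 11.7 CPM in TOs and 13.5 and 18.5 CPM in testes. In the second sub-cluster of early cells Lin28a was higher in each library than in the first (56.1 and 56.9 CPM against 36.8 and 26.0 CPM in TOs, 115 and 93.2 CPM against 54.6 and 38.9 CPM in testes).

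Sohlh1 encodes a helix-loop-helix activator of differentiation (chr2:25842995-25847248, minus strand). Its level was 124 and 242 CPM in TO undifferentiated spermatogonia and 275 and 234 CPM in those of testis, with TO replicate 2 among the testis values and TO replicate 1 below them. In differentiating spermatogonia it was 149 and 184 CPM against 117 and 164 CPM. It was low in the first sub-cluster (62.4 and 123 CPM in TOs, 77.1 and 107 CPM in testes) and high in the second (207 and 340 CPM, 346 and 343 CPM), the opposite order to Id4 in every library.

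Sohlh2, whose product pairs with SOHLH1 (chr3:55182028-55209957, plus strand), ran later. Its levels were 37.2 and 44.9 CPM in TO and 24.1 and 25.3 CPM in testis undifferentiated spermatogonia. They were 64.2 and 78.9 CPM against 29.4 and 24.7 CPM in differentiating spermatogonia, and 60.2 and 47.8 CPM against 32.7 and 48.9 CPM in leptotene to zygotene cells. In the first and second class TO values exceeded those of testis without overlap, and in the third they overlapped. By CPM the highest class was differentiating spermatogonia in both TO libraries and leptotene to zygotene cells in both testis libraries. The ratio between these 2 classes was only 1.07 in TO replicate 1 and 1.11 in testis replicate 1. Of the 13 sub-clusters, that ranked 11, mostly of leptotene to zygotene cells, held Sohlh2 at 86.9 and 83.4 CPM in testes. It had 48 and 119 testis cells and 21 and 13 TO cells, and the part of this makeup in the highest class was not tested. By the share of cells after thinning, undifferentiated spermatogonia were highest in testis replicate 2. Its pattern over the 20 sums was nearest to those of Trap1a (0.974), Stra8 (0.966), a naming marker of differentiating spermatogonia, and Dazl (0.964). The nearest pattern was H2afy for Id4 (0.911), Foxf1 for Nanos2 (0.967) and Nanos3 (0.946), Galnt12 for Sohlh1 (0.982), E2f3 for Dmrt1 (0.983) and Tprn for Dmrtb1 (0.972).

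Dmrt1 encodes a DM domain factor that holds back premature meiosis in spermatogonia (chr19:25505618-25604329, plus strand). It stood at 195 and 195 CPM in TO and 260 and 246 CPM in testis undifferentiated spermatogonia, and at 248 and 236 CPM against 241 and 293 CPM in differentiating spermatogonia, where the libraries overlapped. It was lower in leptotene to zygotene cells in every library, at 102 and 60.9 CPM in TOs and 47.5 and 24.4 CPM in testes, with both TO libraries above both testis libraries there. In Sertoli cells it was at 92.9 and 89.5 CPM in TOs and 95.1 and 98.9 CPM in testes.

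**Figure D1:**
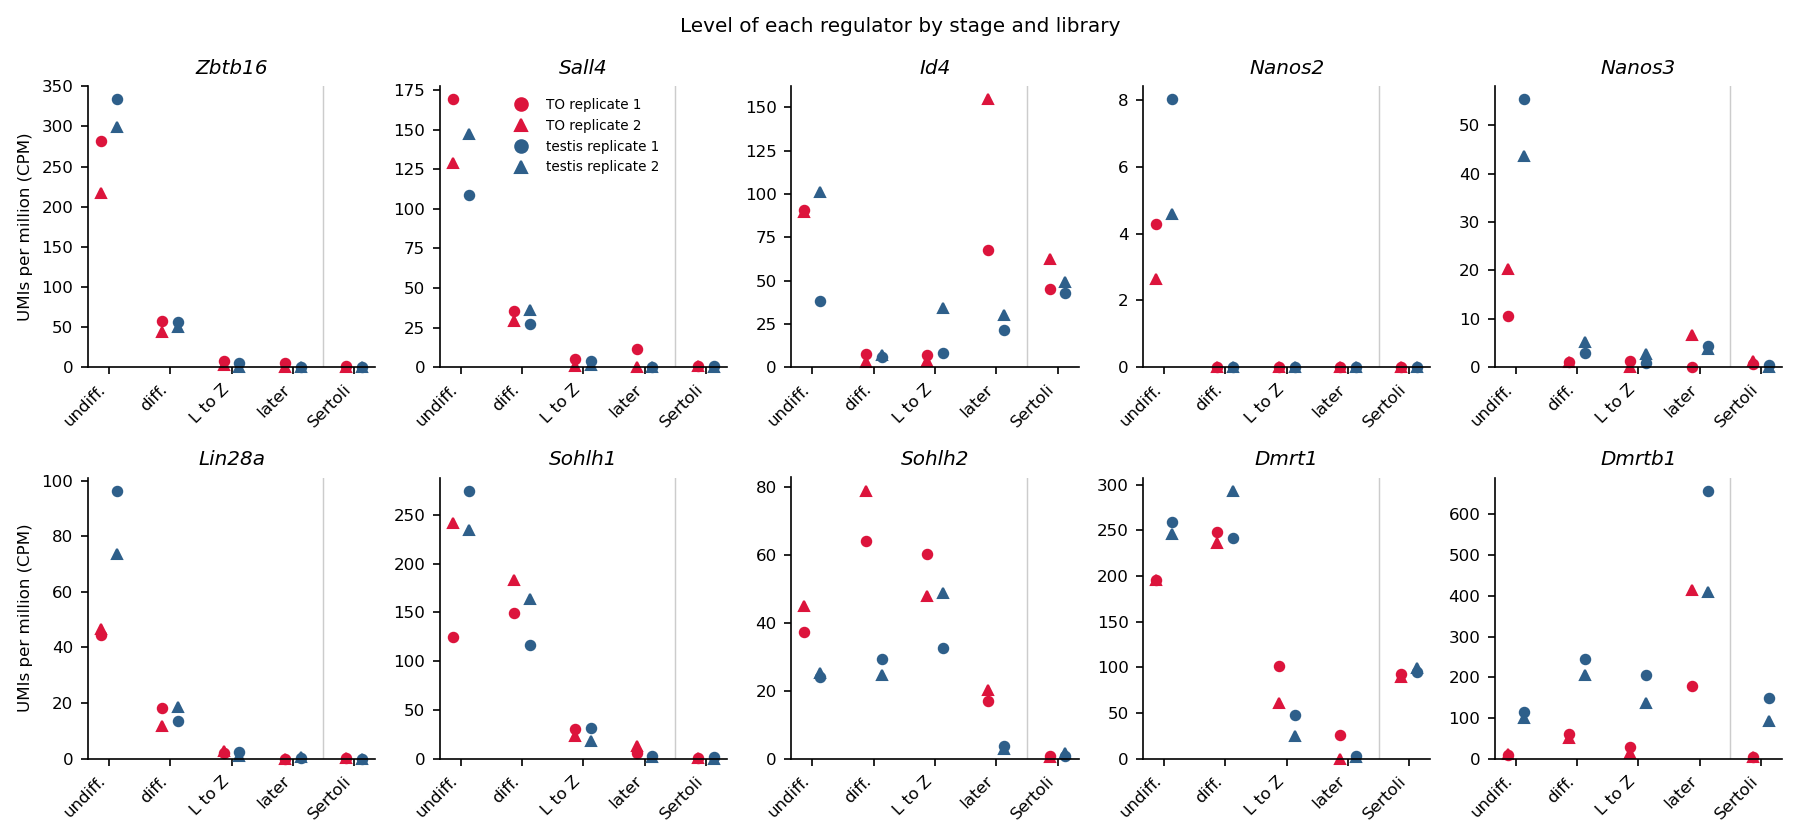
Level of each of the 10 regulators (y axis, CPM, linear from 0) in undifferentiated and differentiating spermatogonia, leptotene to zygotene spermatocytes, later germ cells and Sertoli cells (x axis); red points are TO and blue points testis libraries, circles replicate 1 and triangles replicate 2. Zbtb16, Sall4, Nanos3 and Lin28a are highest in undifferentiated spermatogonia in all 4 libraries. Nanos2 has UMIs in that class alone, but its count of 0 in TO later germ cells allows a higher level there. Sohlh2 lies higher in TOs at 64.2 and 78.9 CPM in differentiating spermatogonia against 29.4 and 24.7 CPM.

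Dmrtb1 (DMRT6), a DM domain factor of the step from mitosis to meiosis (chr4:107676290-107684230, minus strand), was highest in later germ cells in all 4 libraries, at 178 and 414 CPM in TOs and 658 and 410 CPM in testes. In undifferentiated spermatogonia it was 8.10 and 12.3 CPM in TOs and 114 and 98.8 CPM in testes, and in differentiating spermatogonia 60.2 and 49.9 CPM against 244 and 206 CPM. Within the later cells of testes it was 276 and 285 CPM in pachytene cells and 774 and 785 CPM in diplotene and dividing cells.

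Somatic cells of the testis libraries held Dmrtb1 too. Macrophages had 179 and 183 CPM in testes and 6.82 and 3.46 CPM in TOs, Leydig cells 100 and 58.9 CPM against 3.11 and 2.83 CPM, and Sertoli cells 148 and 93.1 CPM against 4.41 and 3.40 CPM. The 8 spermatid markers summed to 2615 and 3307 CPM in testis macrophages and to 2.62 and 4.85 CPM in those of TOs. Testis undifferentiated spermatogonia thus held less Dmrtb1 than testis macrophages (differences of -64.8 and -83.8 CPM). Differentiating spermatogonia held more than macrophages in every library, by 53.3 and 46.4 CPM in TOs and 64.7 and 23.3 CPM in testes. In testis replicate 2, however, their counting interval (178 to 236 CPM) included the macrophage level. Testis leptotene to zygotene cells differed from macrophages by 25.6 and -46.0 CPM. Other somatic cells of testes held Dmrtb1 at 195 to 228 CPM. The counting intervals of differentiating spermatogonia overlapped this range in both testis libraries (223 to 266 CPM in replicate 1 and 178 to 236 CPM in replicate 2).

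**Figure D2:**
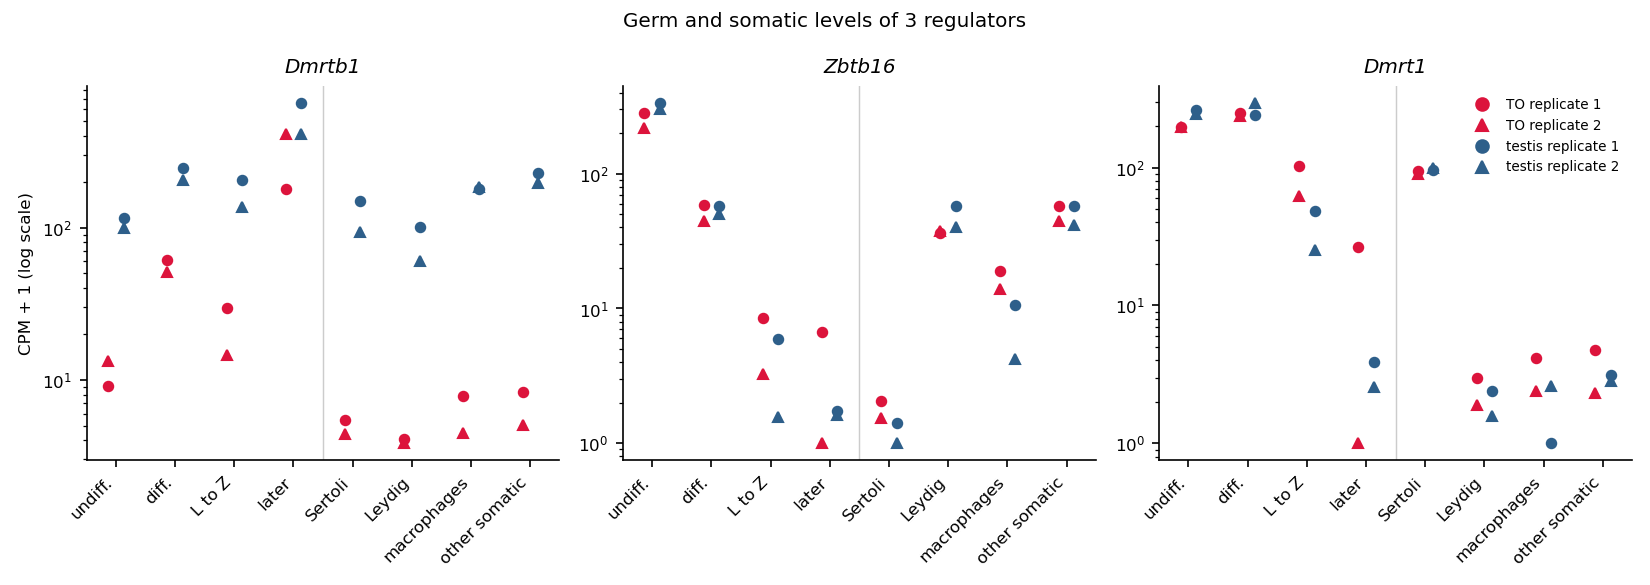
Levels of Dmrtb1, Zbtb16 and Dmrt1 (y axis, CPM + 1, log scale) in the 5 classes and in Leydig cells, macrophages and other somatic cells (x axis); red points are TO and blue points testis libraries, circles replicate 1 and triangles replicate 2. Dmrtb1 is at 58.9 to 228 CPM in each somatic class of testes and at 7.28 CPM or below in each of TOs, while Dmrt1 is high among somatic cells in Sertoli cells alone of the classes drawn.

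TO was then compared with testis in each class over all genes, on the UMI sums of the 4 libraries with edgeR's quasi-likelihood test, a gene being called where p, adjusted after Benjamini and Hochberg, was under 0.01 and the change exceeded 2-fold. Fold changes are log2 ratios of TO to testis. In undifferentiated spermatogonia 3 of the 10 regulators were called, all lower in TOs, where 9.96% of the 11028 genes tested were called (59 higher and 1039 lower) and 9 of the 10 passed the filter on low counts. Nanos3 fell by 1.90 (SE 0.38, adjusted p of 0.000919 from edgeR) and Lin28a by 1.04 (SE 0.26, adjusted p 0.00639). Dmrtb1 fell by 3.56 (SE 0.32, adjusted p 4.31e-08), the gene that also differed in macrophages. The Nanos3 call was lost without TO replicate 1 (-1.37, adjusted p 0.0844), without testis replicate 1 (-1.66, adjusted p 0.0280) and with DESeq2 (-1.84, adjusted p 0.0103). The Lin28a call was lost without TO replicate 1 (adjusted p 0.138), TO replicate 2 (adjusted p 0.0159) or testis replicate 1 (adjusted p 0.290), with DESeq2 (adjusted p 0.0881) and under 2 other settings, the fold ranging from -1.21 to -0.77.

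The other members tested in this class differed by less than the call required. The values were -0.44 (SE 0.22) for Zbtb16, 0.17 (SE 0.23) for Sall4, 0.44 (SE 0.31) for Id4, -0.59 (SE 0.27) for Sohlh1, 0.62 (SE 0.34) for Sohlh2 and -0.47 (SE 0.21) for Dmrt1, with edgeR adjusted p-values from 0.173 to 0.727. Testis replicate 2 decided Id4, which was called at 1.11 without it (adjusted p 0.00771) and stood at -0.24 without testis replicate 1, and TO replicate 2 decided Sohlh1, which was called at -1.13 without it (adjusted p 0.00321).

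In differentiating spermatogonia 2 of the 10 regulators were called, where 13.5% of 12010 genes were called (126 of them higher in TOs) and 8 of the 10 passed the filter. Sohlh2 was higher in TOs by 1.31 (SE 0.24, adjusted p of 0.00223 from edgeR), a call lost without TO replicate 2 (1.21, adjusted p 0.0207) and kept in the other 14 of 15 settings. Stra8, a naming marker of this class, was at 862 and 906 CPM in TOs and 173 and 207 CPM in testes. Kit, another, overlapped at 123 and 96.2 CPM against 108 and 126 CPM. The cells compared were thus not alike in Stra8, and its part in the Sohlh2 difference was not tested. Dmrtb1 fell by 2.09 (SE 0.19, adjusted p 1.95e-05). The remaining 6 ranged from -0.25 for Id4 (SE 0.55) to 0.21 for Sohlh1 (SE 0.21). Dmrt1 was at -0.19 (SE 0.18) and Zbtb16 at -0.15 (SE 0.22).

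In leptotene to zygotene cells Dmrtb1 was the 1 regulator called, at -3.09 (SE 0.37, adjusted p of 8.84e-05 from edgeR), where 15.3% of 11042 genes were called and 5 of the 10 regulators passed the filter. Dmrt1 stood at 1.16 (SE 0.37, adjusted p 0.0437) and Id4 at -2.07 (SE 0.66, adjusted p 0.0432), neither past the threshold. Both were called without testis replicate 1 (1.69 and -2.74), and Id4 was at -0.72 without testis replicate 2. The sub-cluster ranked 11 held 54 Id4 UMIs in 119 cells of testis replicate 2 and 4 in 48 cells of testis replicate 1. In TOs it held 5 and 2 in 21 and 13 cells, and its part in the Id4 difference was not tested. Sohlh2 was at 0.37 (SE 0.31) and Sohlh1 at 0.08 (SE 0.41).

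In later germ cells 0 of the 10 regulators and 0 of 17777 genes (0%) were called with edgeR, although 6538 genes had an unadjusted p below 0.05 and DESeq2 called 2105 genes and 0 of the regulators. With 128 and 62 TO cells, whose stages differ from those of testes, Dmrtb1 was at -1.66 (SE 0.69), Id4 at 1.23 (SE 0.57) and Sohlh2 at 1.63 (SE 0.71). The 7 Sertoli markers summed to 1063 and 188 CPM in these TO cells and to 46.3 and 30.4 CPM in those of testis. In Sertoli cells, where 24.9% of 14364 genes were called, 1 of the 10 regulators was called: Dmrtb1 fell by 4.85 (SE 0.30, adjusted p 0.000242). Dmrt1 was at 0.00 (SE 0.15) and Id4 at 0.33 (SE 0.25) there.

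**Figure D3:**
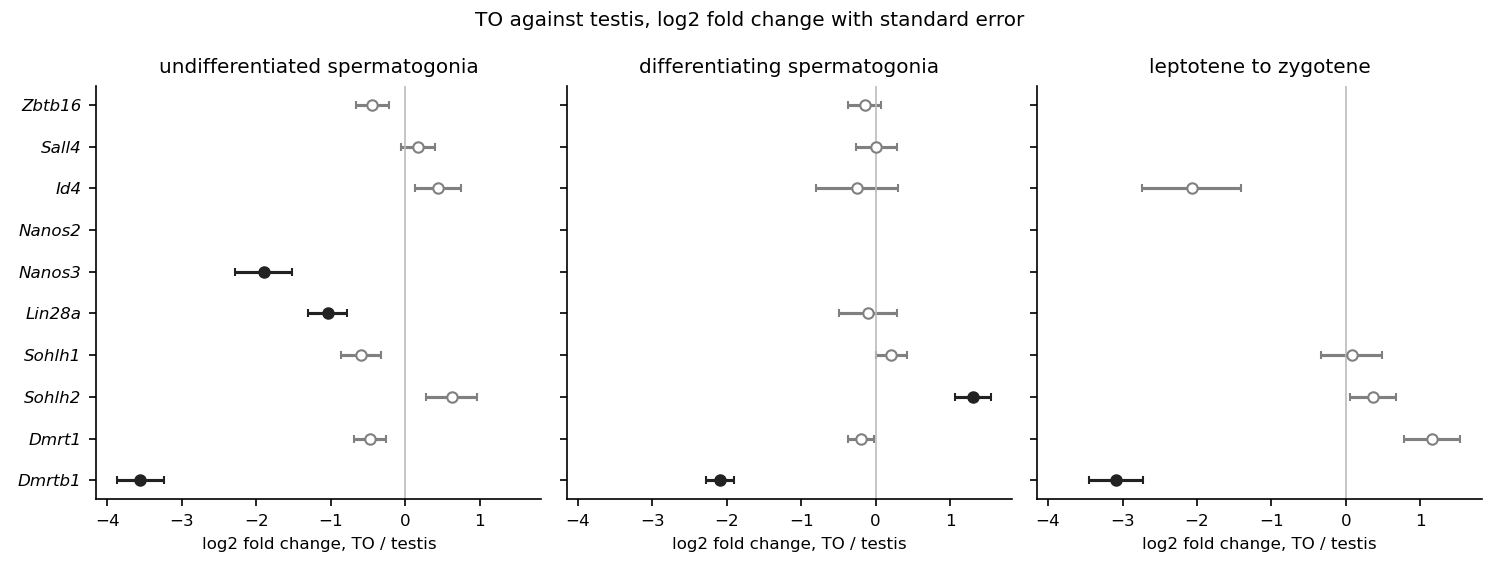
Log2 fold change of TO against testis (x axis) with its standard error (bars) for the regulators with at least 10 UMIs in each condition (y axis), in 3 classes; filled black points were called, open grey points were not. In undifferentiated spermatogonia Nanos3, Lin28a and Dmrtb1 lie at -1.90, -1.04 and -3.56, and in differentiating spermatogonia Sohlh2 lies at 1.31.

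The change along the path was compared between conditions as the difference of the step, TO minus testis, in 1 model over both classes with the library as a covariate. For the step from undifferentiated to differentiating spermatogonia, 1 of the 10 regulators was called against 0.835% of 12930 genes. Dmrtb1 rose more in TOs, by 1.55 (SE 0.32, adjusted p of 0.00214 from edgeR). The testis macrophage level of Dmrtb1 (179 and 183 CPM) lay between the testis levels of the classes this step joins. Sohlh1 stood at 0.99 (SE 0.21, adjusted p 0.00302), just under the 2-fold limit, with levels going from 124 and 242 to 149 and 184 CPM in TOs and from 275 and 234 to 117 and 164 CPM in testes. The first sub-cluster, low in Sohlh1, took 55.7% and 41.5% of TO and 34.4% and 54.2% of testis undifferentiated cells. Within it the libraries overlapped, while in the second TOs were lower (207 and 340 against 346 and 343 CPM). The part of this makeup in the Sohlh1 step was not tested. With the 2-fold limit kept, both Dmrtb1 and Sohlh1 were called in 8 of 13 alternative settings, and each kept its sign in all 13. The Dmrtb1 call was lost without TO replicate 1 (1.09) or testis replicate 1 (1.57, adjusted p 0.0778), and with stages set by a Spearman match to testis states the difference was 0.27. Sohlh1 was called without TO replicate 2 (1.34) or testis replicate 2 (1.29), and stood at 0.73 without TO replicate 1 and 0.56 without testis replicate 1.

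For the step from differentiating to leptotene to zygotene cells, 1 of the 10 regulators was called against 0.818% of 12838 genes. Dmrt1 dropped less in TOs, by 1.55 (SE 0.30, adjusted p of 0.00392 from edgeR). The call was lost without TO replicate 1 (1.25), TO replicate 2 (1.81, adjusted p 0.0329) or testis replicate 2 (0.88), and was kept in 6 of 13 settings. The leptotene to zygotene class had 220 and 286 TO cells and 315 and 349 testis cells. The sub-cluster ranked 11 of the 13, mostly of this class, had Dmrt1 at 5.11 CPM or below in every library and held 21 and 13 TO cells and 48 and 119 testis cells. The one ranked 12 had it at 9.0 CPM or below and held 19 and 33 TO cells and 38 and 67 testis cells. The part of this makeup in the difference was not tested. Within the sub-cluster ranked 9, Dmrt1 was at 245 and 171 CPM in TOs and 98.3 and 158 CPM in testes. Within that ranked 10 it was at 147 and 102 CPM against 84.6 and 70.3 CPM. In that ranked 13 the libraries overlapped, at 16.2 and 15.7 CPM against 21.1 and 8.86 CPM. Sohlh2 stood at -0.73 and Dmrtb1 at -0.81, neither called.

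Sub-clusters gave the same comparison in finer steps, without a test. They come from the same 4 libraries and are not separate replicates. The share of all genes whose libraries separated in this way was not counted, so the counts only describe these regulators. Of the 13 sub-clusters, 12 had at least 10 cells in each library. Sohlh2 was higher in both TO libraries than in both testis libraries in 10 of the 12, overlapped in 1 and was lower in 1 (31.7 and 52.4 CPM in TOs and 86.9 and 83.4 CPM in testes). Stra8 differed within sub-clusters too. It was at 868 and 842 CPM in TOs and 35.9 and 36.8 CPM in testes in that ranked 5. In that ranked 9 it was at 1088 and 1362 CPM against 766 and 683 CPM. Nanos3 was lower in both TO libraries in 3 of the 12 and never higher, Dmrtb1 was lower in all 12, and Zbtb16, Sall4 and Id4 overlapped in 8, 9 and 9. Dmrt1 was higher in both TO libraries in 4, lower in both in 4 and overlapped in 4. Some of these counts rest on few UMIs. In the sub-cluster ranked 13, Nanos3 had 1 and 0 UMIs in TOs and 1 and 3 in testes. In that ranked 11, Dmrt1 had 0 and 0 UMIs in TOs and 1 and 4 in testes, and Zbtb16 had 0 in every library. Such low counts can show neither a difference nor a likeness.

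**Figure D4:**
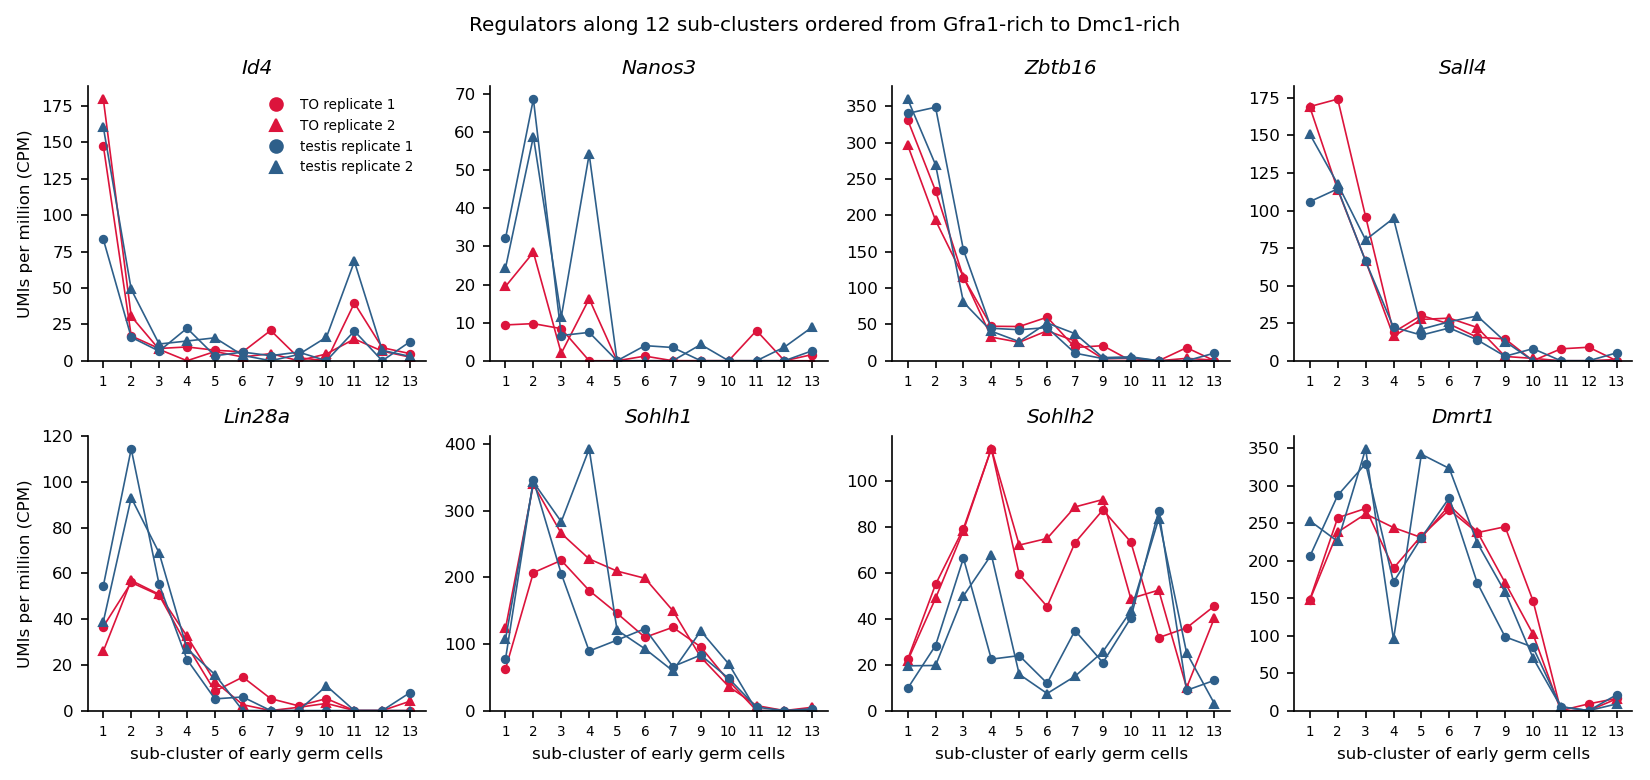
Levels of 8 regulators (y axis, CPM, linear from 0) along 12 sub-clusters of early germ cells, ordered by marker expression from Gfra1-rich to Dmc1-rich (x axis); red lines are TO and blue lines testis libraries, circles replicate 1 and triangles replicate 2. Id4 is at 148 and 180 CPM in the first and 17.1 and 30.5 CPM in the second sub-cluster of TOs, Sohlh1 is lower in the first and higher in the second, and the red Sohlh2 lines lie above the blue in 10 of the 12.

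Genes related to the regulators were read from 3 hand-written lists. Their counts stand beside the shares of all genes called with edgeR. These were 9.96% in undifferentiated and 13.5% in differentiating spermatogonia, 15.3% in leptotene to zygotene cells and 24.9% in Sertoli cells. No count of a list is read as a result about its genes as a set. Of 25 transcription regulators of germ cells, 20 were tested in undifferentiated spermatogonia (median -0.13, all genes 0.01), with Id1 higher in TOs (2.10, from 6.25 and 6.89 CPM in testes to 31.0 and 29.0 CPM) and Sox3 lower (-1.10, from 117 and 87.3 CPM to 42.9 and 64.2 CPM). Id1 and Id3, inhibitors of the same family as ID4, were higher in TOs in differentiating spermatogonia (2.97 and 2.38) and in leptotene to zygotene cells (4.27 and 5.75), 2 of 18 and 2 of 16 tested. TO Sertoli cells held Id1 at 33.8 and 27.4 CPM and Id3 at 41.6 and 21.4 CPM, and TO leptotene to zygotene cells held Id3 at 54.5 and 26.5 CPM against 0.82 and 0.56 CPM in testes. Whether RNA of other cells adds to these levels was not tested. The Id4 difference was not called in any of these classes. Sertoli cells showed Pou3f1 higher (5.30) and Foxo1 and Taf4b lower (-1.32 and -1.19), 3 of 14 tested, where 24.9% of all genes were called.

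Of 15 RNA regulators, 0 of 15 tested were called with edgeR in undifferentiated spermatogonia (median 0.21), the 3 with the lowest p being Rbm46 (0.48), Nanos1 (0.85) and Lin28b (0.40). Dnd1, a partner of NANOS2, was higher in TO differentiating spermatogonia (1.01, 146 and 176 CPM against 72.2 and 82.4 CPM), 1 of 15 tested, where 13.5% of all genes were called. In leptotene to zygotene cells 0 of 14 were called, the lowest p-values being those of Lin28b (0.88), Meioc (0.57) and Dazl (0.72). In Sertoli cells the germ cell genes Ddx4 and Meioc were lower in TOs (-3.84 and -2.53), 2 of 13 tested, where 24.9% of all genes were called. The spermatid markers were at 1887 and 12262 CPM in testis Sertoli cells and 3.56 and 5.44 CPM in those of TOs. Of the other 7 DM domain genes, 2, 3, 2 and 5 were tested in undifferentiated, differentiating, leptotene to zygotene and later cells, and 0 were called. The genes not tested could not be called, and in later cells 0 of all genes were. Dmrtc2 was at -1.66 (adjusted p of 0.0170 from edgeR) in undifferentiated spermatogonia. Dmrtc2 and Dmrtc1b were lower in TO Sertoli cells (-3.74 and -4.76), 2 of 5 tested, where 24.9% of all genes were called. In later germ cells 0 genes of the 3 lists were called with edgeR, the lowest p-values being those of Id1 (5.05), Id3 (5.56) and Id2 (4.28) and of Dazl (2.77), Lin28b (2.79) and Rbm46 (1.56), in cells with the Sertoli marker sums given above.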

How the data were processed

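The authors aligned and counted the reads with Cell Ranger 7.1.0 on mm10 (per the submitters' processing notes), and what they deposited are UMI counts for each gene in each barcode, not normalized. The annotation release is not given in the sources used here. The 10 genes and the related lists were chosen with earlier results of these data known, so they give no independent support. Gene positions came from GENCODE vM21.

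Within each library the highest Scrublet scores were removed as doublets (0.8% per 1000 barcodes, scanpy 1.11.5), where the study names DoubletFinder. A cell was kept if it had 1000 to 5000 genes, no more than 20000 UMIs and no more than 10% of them mitochondrial. After scaling to 10000 UMIs, 2000 variable genes, 30 principal components (20 for germ cells) and a Harmony step written for these data, cells were clustered with leidenalg 0.10.2 (20 neighbours, resolution 1). Clusters were named from at least 3 detected markers, so names may differ from those of the study. Stage differences carry no test, since clusters and levels come from the same cells.

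UMIs were summed per library and class and tested with edgeR 4.0.16 under R 4.3.3 (quasi-likelihood, TMM, filterByExpr), with Benjamini-Hochberg adjustment over all genes tested. The study's rank test across cells was not used, because cells of 1 library are not replicates. A member's fold change is given where both conditions had at least 10 UMIs. With 2 libraries against 2, an exact permutation test cannot go below p = 0.33 and was not used. Intervals of pooled ratios (95%) and limits from a count of 0 (3 counts) cover counting error only. All 10 members, the called members of the 3 lists (or the 3 with the lowest p) and the 3 nearest patterns were named, the latter among genes at 50 CPM or more in at least 1 sum.

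The edgeR step was tested on simulated sums, drawn with a fixed dispersion that was not estimated from these libraries. Changes near 2-fold were not simulated, so the shares found do not cover them. It called 62% of 4-fold and 88% of 8-fold changes at the depth of undifferentiated spermatogonia, 78% and 96% for differentiating spermatogonia, 85% and 96% for leptotene to zygotene cells, 39% and 49% for later germ cells and 78% and 89% for Sertoli cells, with at most 2 unchanged genes called. Alternatives were DESeq2 1.42.0, other gene and cell filters, a replicate block, other clustering and each library left out.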

Additional observations from a re-analysis of the deposited data

Results flagged for a closer look

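The step from undifferentiated to differentiating spermatogonia differed between TO and testis for Dmrtb1 by 1.55 on the log2 scale (edgeR, library as covariate), with levels of 8.10 and 12.3 CPM before and 60.2 and 49.9 CPM after the step in TOs, and 114 and 98.8 CPM before and 244 and 206 CPM after it in testes. The step from differentiating to leptotene to zygotene cells differed for Dmrt1 by 1.55, with 248 and 236 CPM before and 102 and 60.9 CPM after it in TOs, and 241 and 293 CPM before and 47.5 and 24.4 CPM after it in testes.

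Signals of the regulators appeared in cells outside the 5 classes compared, above the limit that a count of 0 allows in every library. The lowest of the 4 libraries had Dmrtb1 at 2.83 CPM in Leydig cells, 3.46 CPM in macrophages and 4.04 CPM in other somatic cells, in each case a TO library. Zbtb16 was at 35.5 CPM or more in Leydig cells and 41.0 CPM or more in other somatic cells. Id4 was at 11.9 CPM or more in other somatic cells. What these signals come from was not tested.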

How the results depend on the processing

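Of the alternatives for counts of called regulators or genes, 133 kept the count within 1.5 times, 23 raised it and 22 lowered it. Of those for single regulators, 506 kept direction and call, 21 gained the call, 22 lost it and 36 changed sign. The cause was not tested where a count or call changed. Depth differed: TO later germ cells numbered 128 and 62, and undifferentiated cells of testis replicate 2 numbered 59.

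Regulators called in undifferentiated spermatogonia numbered 3, but 1 with DESeq2 and 1 to 4 with a library left out (1 without TO replicate 1 or testis replicate 1). In differentiating spermatogonia they numbered 2, and 1 to 2 with a library left out. In leptotene to zygotene cells they numbered 1, but 3 with genes of any count, at adjusted p below 0.05 with no minimum fold or with the block, and 1 to 3 with a library left out (3 without testis replicate 1). In later germ cells 0 and in Sertoli cells 1 were called under each alternative run. For the first step 1 was called, 0 with DESeq2 or Leiden resolution 2, 2 with genes of any count, at adjusted p below 0.05, without doublet removal, without upper limits or with the regulators kept in clustering, 3 without Harmony, and 0 to 2 with a library left out. For the second step 1 was called, 0 with DESeq2, without doublet removal, without upper limits or at Leiden resolution 2, and 0 to 2 with a library left out.

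All genes called numbered 1098 in undifferentiated spermatogonia (637 with genes of other cells left out, 466 to 1273 with a library left out, lowest without TO replicate 1 or testis replicate 1), 1621 in differentiating spermatogonia (970, and 1086 to 2143), 1687 in leptotene to zygotene cells (1062, 2645 with genes of any count, and 1309 to 2435) and 3583 in Sertoli cells (6484 at adjusted p below 0.05, and 1610 to 3934, lowest without TO replicate 1 or 2). In later germ cells edgeR called 0, DESeq2 2105, genes of any count 1532, adjusted p below 0.05 2987, spermatocytes alone 938 and no upper limits 675, and 0 to 820 with a library left out (820 without testis replicate 1, 559 without testis replicate 2).

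Library numbers were not treated as pairs: same-numbered libraries correlated at -0.00898 to 0.127 in their deviations, and the labels tie the numbers to nothing. With the replicate block, 3, 2, 3, 0 and 1 regulators and 1224, 2001, 2261, 1755 and 4841 genes were called in undifferentiated, differentiating, leptotene to zygotene, later and Sertoli cells.

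Signs that changed belonged to differences that were not called. With Spearman assignment Sall4 was at -0.14 in undifferentiated and -0.19 in differentiating spermatogonia. In differentiating spermatogonia Lin28a was at 0.0055 with genes of any count, and without upper limits Lin28a was at 0.19 and Zbtb16 at 0.14. Without Harmony, Lin28a was at 0.13, Id4 at 0.086, Sohlh1 in leptotene to zygotene cells at -0.11 and Dmrt1 in Sertoli cells at -0.18. At Leiden resolution 2, Sall4 was at -0.012 in differentiating spermatogonia and Sohlh2 at -0.10 in leptotene to zygotene cells. Dmrt1 in Sertoli cells was at -0.014 with DESeq2 and -0.041 without upper limits, and Sohlh2 in later cells at -0.23 without upper limits. For the first step Sall4 was at 0.026 without doublet removal, 0.31 without upper limits and 0.19 without Harmony, and for the second step Sohlh1 was at -0.12 with DESeq2, -0.22 with genes of any count and -0.14 without Harmony. With a library left out, the ranges that crossed 0 in undifferentiated spermatogonia were -0.048 to 0.35 for Sall4 and -0.24 to 1.11 for Id4. In differentiating spermatogonia they were -0.31 to 0.081 for Zbtb16, -0.17 to 0.21 for Sall4, -1.05 to 0.25 for Id4 and -0.42 to 0.21 for Lin28a. They were -0.35 to 0.54 for Sohlh1 in leptotene to zygotene cells, -0.046 to 1.89 for Id4 in later cells, -0.066 to 0.048 for Dmrt1 in Sertoli cells, -0.13 to 0.026 for Sall4 in the first step and -0.67 to 0.41 for Sohlh1 in the second step.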
